A study of Homo sapiens with 6 samples.

Results

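The BCL2 family was described here through 10 genes, chosen by name: the anti-apoptotic MCL1, BCL2L1, BCL2 and BCL2L2, the effectors BAX and BAK1, and the BH3-only genes BMF, BBC3, PMAIP1 and BCL2L11. All 10 were found by their Ensembl identifiers among 50868 listed genes. The data came from 6 RNA-seq libraries labelled A549, a lung adenocarcinoma cell line grown in RPMI medium with fetal bovine serum. In 3 of them the cells had received a scramble (NC) siRNA and were labelled wild type, and in the other 3 an siRNA against SF3B4, a subunit of the SF3b complex that recognises the branch point of introns. Of the SF3B4 siRNA replicates, the genotype label of 1 names SF3B4 and those of replicates 2 and 3 name SF3B5 and SF3B6. The titles and treatment labels name SF3B4 in all 3 and were followed. No source used here gives the siRNA sequence, its dose or the time of harvest.

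BCL2 family proteins decide at the outer mitochondrial membrane whether a cell releases cytochrome c and activates caspases. BAX and BAK1 form the pores, the anti-apoptotic members hold them in check, and the BH3-only proteins, made or released under stress, bind the anti-apoptotic members or the effectors themselves. In epithelial tumour cells BCL2L1 (BCL-xL) and MCL1 are well known as survival genes. Both are also textbook cases of alternative splicing, with long forms that protect and short forms that promote death. The deposited values are 1 per gene, in FPKM (fragments scaled to the transcript's length and the library's size), so they sum over such forms and do not separate them.

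The targeted gene, SF3B4, had 88.6, 92.0 and 93.8 FPKM with control siRNA. With its own siRNA it had 22.0, 17.7 and 22.3 FPKM, or 22.6% of the control mean. Steps in the values of single-exon genes put the depth at 17508975 to 18529739 fragments per library. Of 9 genes often high in A549, AKR1C1, AKR1C2, ALDH1A1, ALDH3A1 and GPX2 had group means of at most 0.105 FPKM. Of the other 4, NQO1 was at 174 and 159 FPKM (control and SF3B4 siRNA means), AKR1C3 at 0.740 and 0.994 FPKM, AKR1B10 at 0.885 and 2.16 FPKM and VIM at 3.46 and 1.54 FPKM. The deposited tables are named for another lung cancer line, H1650. The libraries are therefore called by their label only. The epithelial genes EPCAM, KRT8, KRT18 and CDH1 were at control means of 21.3 to 257 FPKM, and the leukocyte gene PTPRC was listed at 0 in every library. Some of these genes moved with the groups: CDH1 rose from 41.2 to 75.0 FPKM, VIM fell, AKR1B10 rose and the fibroblast gene COL1A1 rose from 1.33 to 2.27 FPKM, while its partner COL1A2 was at most 0.0630 FPKM. The part of these shifts in the family's values was not tested. In bulk RNA, a lower level can come from fewer cells that express a gene or from less RNA per cell, which cannot be told apart.

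Of the 10 genes, 9 passed the filter (FPKM of at least 1 in at least 3 libraries) and were tested with limma on log2(FPKM + 0.1), with p-values adjusted over all 9685 tested genes and a threshold of 0.05. After SF3B4 siRNA, BMF and BCL2L1 rose, BAX and BAK1 fell, and MCL1, BCL2L2, BBC3, PMAIP1 and BCL2L11 did not pass the test. The background was high: 34.1% of all tested genes were called, 16.0% higher and 18.1% lower. With 4 of 9 called, the family's share lay near that background. The libraries of the groups did not overlap for the same 4 genes, and for 49.5% of all tested genes. The median log2 fold change was 0.22 over the 9 genes and -0.0035 over all tested genes. The median of the 9 is the value of PMAIP1, which did not pass the test. A shift of the family as a set was not tested.

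**Figure D1:**
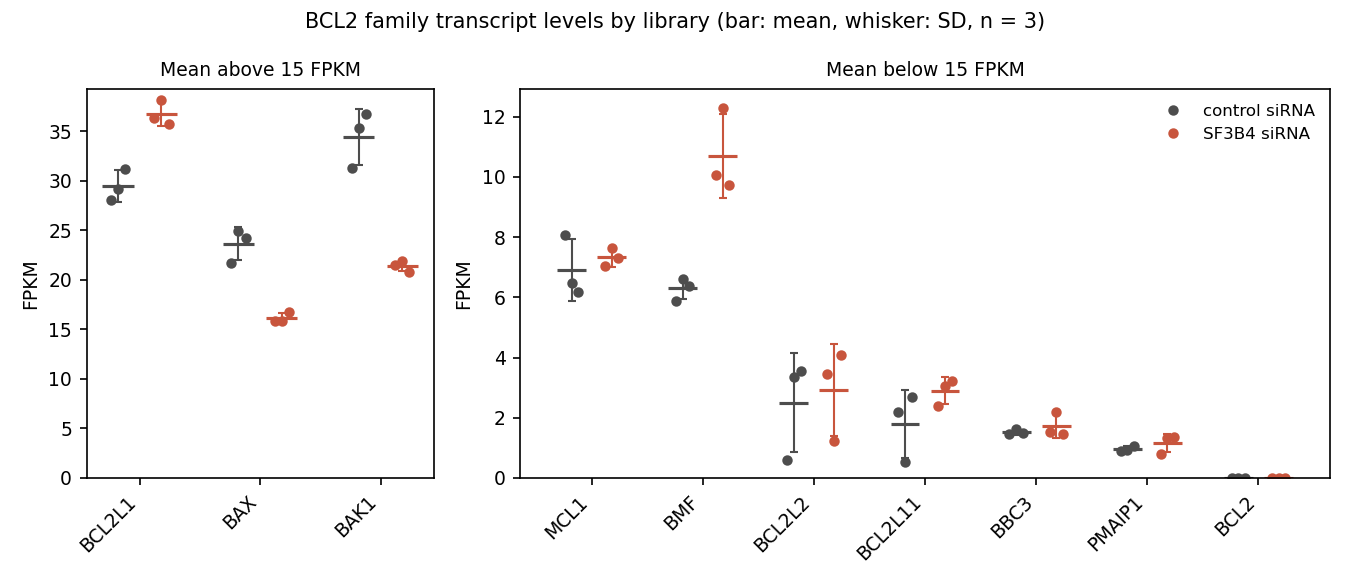
FPKM of the 10 genes in each library (points), with the mean (bar) and SD (whisker) of 3 control (grey) and 3 SF3B4 siRNA (red) libraries. BCL2L1 and BMF are higher and BAX and BAK1 lower without overlap, while the groups overlap for MCL1, BCL2L2, BCL2L11, BBC3 and PMAIP1, and BCL2 lies at or near 0.

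Sequences at the starts of BAX, BAK1 and BMF are shown, the 3 with the largest fold changes among the 4 genes that passed the test, because they moved in different directions. They are RefSeq promoters (GRCh38.p14, 250 bases before to 50 after the start), found for 8 of the 10 genes. MCL1 and BCL2L2 had no entry. Capitals mark the E-box CACGTG, which reads the same on both strands, and the GC box GGGCGG or its reverse complement CCGCCC. No marked word overlaps another. BMF has 2 starts in the table, of which the upstream one is shown.
BAX (lower), chr19:48954625-48954924, plus strand: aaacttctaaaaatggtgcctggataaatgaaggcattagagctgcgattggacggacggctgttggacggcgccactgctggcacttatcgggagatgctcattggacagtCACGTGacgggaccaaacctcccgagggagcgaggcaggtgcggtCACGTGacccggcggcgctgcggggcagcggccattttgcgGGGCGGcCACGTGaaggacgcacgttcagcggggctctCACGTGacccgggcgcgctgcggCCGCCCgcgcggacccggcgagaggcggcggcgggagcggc
BAK1 (lower), chr6:33580227-33580526, minus strand: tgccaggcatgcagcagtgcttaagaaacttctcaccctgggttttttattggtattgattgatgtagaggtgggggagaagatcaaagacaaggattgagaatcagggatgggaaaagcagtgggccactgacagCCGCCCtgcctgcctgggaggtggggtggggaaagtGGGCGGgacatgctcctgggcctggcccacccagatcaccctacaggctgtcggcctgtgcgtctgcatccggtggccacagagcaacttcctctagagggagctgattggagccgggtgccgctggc
BMF (higher), chr15:40108830-40109129, minus strand: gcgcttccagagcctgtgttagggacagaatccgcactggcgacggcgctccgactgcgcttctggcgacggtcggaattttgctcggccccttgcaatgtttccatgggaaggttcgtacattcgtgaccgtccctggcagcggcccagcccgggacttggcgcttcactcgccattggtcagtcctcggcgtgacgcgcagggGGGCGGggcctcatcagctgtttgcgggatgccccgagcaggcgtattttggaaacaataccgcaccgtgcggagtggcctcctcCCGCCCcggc
The BAX window held 4 E-boxes, and 5 of 35116 promoters in the table held 4 or more. Of these, 4 were promoters of tested genes, with 1 for genes that fell (BAX), 0 for genes that rose and 3 for genes that did not pass. At least 1 E-box was in 2548 of them (7.26%). Among promoters of tested genes it was in 992 of 10022 (9.90%), with 203 of 1846 for genes that fell, 150 of 1664 for genes that rose and 639 of 6512 for genes that did not pass. Neither BAK1 nor BMF had an E-box in the window shown. Each of the 3 windows shown had 2 GC boxes, a word present in 15786 of the 35116 promoters. The other BMF start had 0 GC boxes, and the starts of BCL2L1, not shown, had 0 and 1. These matches are letters in a window and say nothing about which factor was bound.

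Among the effectors, BAK1 was at 31.3, 35.3 and 36.8 FPKM in controls and at 21.5, 21.9 and 20.8 FPKM after SF3B4 siRNA. All 3 treated libraries lay below the lowest control, and BAK1 fell to 62.2% of the control mean. The log2 fold change was -0.68 (SE 0.08, limma adjusted p = 0.00078). BAK1, which sits permanently in the outer mitochondrial membrane, is annotated at chromosome 6, 33572547 to 33580293 (GRCh38, GENCODE 29, minus strand). A processed pseudogene, BAK1P1 on chromosome 20, is 98.3% identical to the BAK1 transcript over 636 aligned bases, with 20 gap positions, so fragments can be split between them and both values are uncertain. BAK1P1 was listed at 7.76, 8.94 and 9.78 FPKM in controls and at 4.85, 5.73 and 4.58 FPKM after SF3B4 siRNA, 57.3% of control. With BAK1P1 added to BAK1, an alternative chosen after seeing the data, the log2 fold change was -0.70 (limma adjusted p = 0.00084).

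BAX, the effector that resides in the cytosol and moves to mitochondria when activated, was at 21.8, 24.9 and 24.2 FPKM in controls. After SF3B4 siRNA it was at 15.9, 15.8 and 16.8 FPKM. The groups did not overlap, and BAX fell to 68.4% of control, or -0.54 on the log2 scale (SE 0.08, limma adjusted p = 0.0018). The gene lies on chromosome 19, 48954815 to 48961798 (plus strand). Its exons overlap no other annotated gene. The calls of BAX and BAK1 were kept in every alternative that was run. Coding transcripts of BAX range from 383 to 1358 bases. The alternatives did not change how fragments were assigned to them, so the BAX value is uncertain in that respect.

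Among the anti-apoptotic genes, BCL2L1 rose. It was at 28.0, 29.1 and 31.2 FPKM in controls and at 36.4, 38.2 and 35.8 FPKM after SF3B4 siRNA, 1.25 times the control mean without overlap. The log2 fold change was 0.32 (SE 0.07, limma adjusted p = 0.0095). BCL2L1 lies on chromosome 20, 31664452 to 31723989 (minus strand), with 9 annotated transcripts whose shares are not in these values. An antisense gene, ABALON, covers 43.0% of its exonic bases and was listed at no more than 0.170 FPKM.

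MCL1, a short-lived protein that binds BAK1 and several BH3-only proteins, was at 8.08, 6.47 and 6.18 FPKM in controls. After SF3B4 siRNA it was at 7.03, 7.65 and 7.31 FPKM, within the control range. The log2 fold change of 0.09 did not pass the test (limma adjusted p = 0.57), with a 95% interval of -0.17 to 0.36. Control replicate 1 was the highest of the 6 libraries. Without it the log2 fold change was 0.21 (limma adjusted p = 0.090). MCL1 lies on chromosome 1, 150574551 to 150579738 (minus strand).

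BCL2L2 (BCL-w) was at 0.607, 3.34 and 3.54 FPKM in controls and at 3.46, 1.21 and 4.09 FPKM after SF3B4 siRNA. The low libraries, control replicate 1 and SF3B4 siRNA replicate 2, fell in different groups, and the 95% interval of the log2 fold change ran from -1.58 to 2.35 (limma adjusted p = 0.75). A readthrough gene, BCL2L2-PABPN1, shares 19.4% of the exonic bases of BCL2L2 on the same strand, so this value is uncertain. The readthrough was at 3.15 ± 0.191 and 2.19 ± 0.233 FPKM (SD, n = 3 each) and fell (log2 fold change -0.51, limma adjusted p = 0.011). Summed with it, BCL2L2 had a log2 fold change of -0.16 (limma adjusted p = 0.72), the opposite sign. Without control replicate 1 the value for BCL2L2 alone was -0.39 (limma adjusted p = 0.58). BCL2, the founding member and the target of venetoclax, was listed at 0 in 5 libraries and at 0.00347 FPKM in control replicate 2, and was not tested.

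Among the BH3-only genes, BMF rose. It was at 5.89, 6.61 and 6.38 FPKM in controls and at 10.1, 12.3 and 9.72 FPKM after SF3B4 siRNA. Every treated library exceeded every control, and the mean was 1.70 times that of the controls. The log2 fold change was 0.75 (SE 0.11, limma adjusted p = 0.0020), with 96.7% of tested genes at a lower value. BMF is known for its release from the actin and myosin motor machinery when cells detach or their cytoskeleton is disturbed. It lies on chromosome 15, 40087890 to 40108892 (minus strand), and the antisense gene BMF-AS1 was listed at 0 in every library. BMF and BCL2L1 kept their calls in every alternative that was run. Coding transcripts range from 490 to 4687 bases in BMF and from 381 to 2610 in BCL2L1. The alternatives did not change how fragments were assigned to them, so both values are uncertain in that respect.

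BCL2L11 (BIM), which can bind all anti-apoptotic members, was at 2.19, 0.533 and 2.69 FPKM in controls and at 2.41, 3.07 and 3.23 FPKM after SF3B4 siRNA. Control replicate 2 lay far below the rest, and the groups overlapped. The log2 fold change of 0.90 ± 0.56 (SE) did not pass the test (limma adjusted p = 0.26, 95% interval -0.46 to 2.26). Without control replicate 2 it was 0.24 (limma adjusted p = 0.33). The coding transcripts of BCL2L11 range from 243 to 5231 bases, and the noncoding gene MIR4435-2HG overlaps 10.9% of its exonic bases on the other strand, so its values are uncertain. MIR4435-2HG fell from 3.77 ± 0.169 to 1.93 ± 0.110 FPKM (SD, n = 3 each, limma adjusted p = 0.00054).

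BBC3 (PUMA) and PMAIP1 (NOXA) are known to be switched on at the transcript level by stress. BBC3 was at 1.47, 1.62 and 1.48 FPKM in controls and at 1.52, 2.20 and 1.47 FPKM after SF3B4 siRNA. Only SF3B4 siRNA replicate 2 exceeded the control range, and the difference did not pass (log2 fold change 0.15, 95% interval -0.23 to 0.54, limma adjusted p = 0.52). Without that library the value was -0.025 (limma adjusted p = 0.91). PMAIP1, whose product binds MCL1, was at 0.901, 0.926 and 1.06 FPKM in controls and at 0.797, 1.33 and 1.34 FPKM after SF3B4 siRNA. It spread on both sides of the controls and did not pass (log2 fold change 0.22, 95% interval -0.27 to 0.70, limma adjusted p = 0.46). Without SF3B4 siRNA replicate 1 it was 0.44 (limma adjusted p = 0.080). At the length of their longest coding transcripts, the BBC3 values rested on 48.9 to 73.1 fragments and the PMAIP1 values on 27.2 to 48.5 fragments, which limits their precision.

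**Figure D2:**
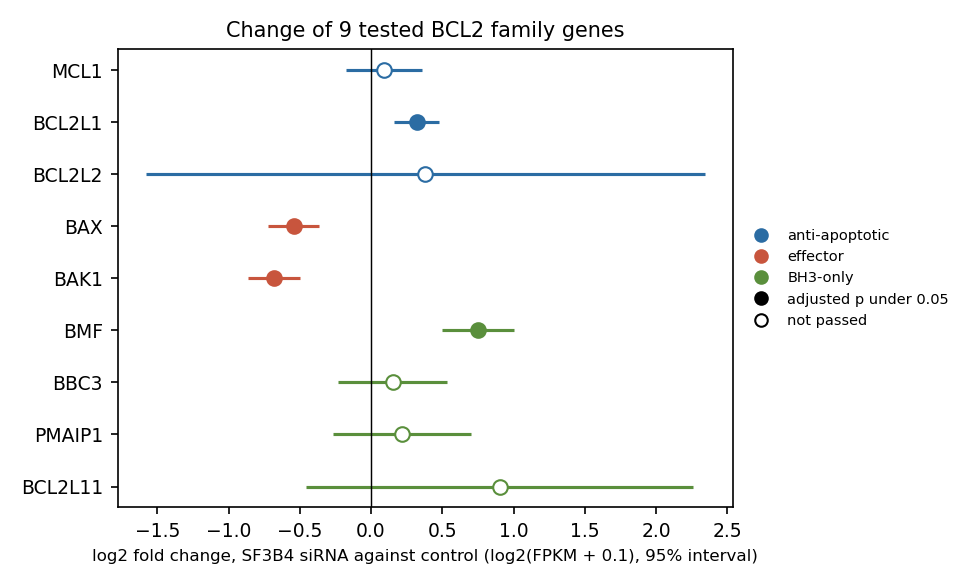
log2 fold change of the 9 tested genes, SF3B4 siRNA against control, with 95% intervals from limma. Colours mark the class, and filled points passed an adjusted p of 0.05. BMF and BCL2L1 lie above 0, BAX and BAK1 below, and the intervals of BCL2L2 and BCL2L11 are the widest of the 9.

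On this length-scaled measure the order of mean levels in controls was BAK1 (34.4 FPKM), BCL2L1 (29.5), BAX (23.6), MCL1 (6.91), BMF (6.29), BCL2L2 (2.50), BCL2L11 (1.80), BBC3 (1.52) and PMAIP1 (0.961). BAK1 and BCL2L1 were neighbours whose control libraries did not overlap, although by a narrow margin, and MCL1 and BMF overlapped. After SF3B4 siRNA BCL2L1 came first (36.8 FPKM), ahead of BAK1 (21.4) and BAX (16.2), and BMF (10.7) stood above MCL1 (7.33) without overlap. BCL2L2 (2.92) and BCL2L11 (2.90) were level within their spread.

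Summed over the 10 genes, the family was at 108 ± 6.77 FPKM in controls and 101 ± 2.38 FPKM after SF3B4 siRNA (SD, n = 3 each). The makeup of these 10 genes differed more than their sum, with BAX and BAK1 as the only effectors counted. BOK, a pore-forming relative at 51.2 and 62.8 FPKM (control and SF3B4 siRNA means), is outside the 10 genes and not in the sum. The effectors held 54.0% ± 1.23 of the sum in controls and 37.2% ± 0.680 after SF3B4 siRNA. The anti-apoptotic share went from 36.2% ± 0.450 to 46.5% ± 1.05 and the BH3-only share from 9.85% ± 0.832 to 16.3% ± 1.73. BAD and BID, BH3-only genes outside the 10, were not in the sum and did not pass the test. BAD was at 35.5 and 30.2 FPKM and BID at 5.41 and 5.33 FPKM (control and SF3B4 siRNA means). BIK and HRK, also BH3-only genes outside the sum, did not pass the filter and were not tested. BIK was at 0.797 and 0.313 FPKM, lower in each SF3B4 siRNA library than in any control, and HRK at 0.257 and 0.296 FPKM. GPR137 on the other strand covers 23.7% of the exonic bases of BAD. The shares therefore hold for the 10 genes only. In each class the libraries of the groups did not overlap, as for 49.5% of all tested genes taken singly. The 3 shares add to 100%, so a fall in 1 raises the rest. BCL2L1 alone went from 27.4% to 36.4% of the sum and BMF alone from 5.86% to 10.6%. The other anti-apoptotic and BH3-only members did not pass the test or were not tested. These sums over chosen genes are descriptions with no test.

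**Figure D3:**
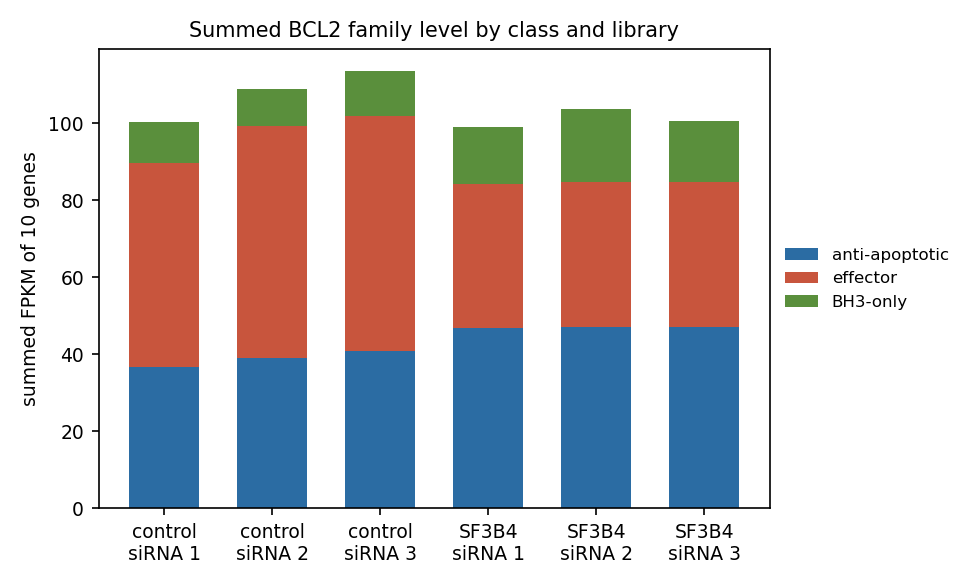
Summed FPKM of the 10 genes in each library, stacked by class. The effector part (BAX and BAK1, without BOK) is 53.0 to 61.0 FPKM in the 3 control libraries. In the 3 SF3B4 siRNA libraries it is 37.4 to 37.8 FPKM, and the anti-apoptotic and BH3-only parts are larger. The BH3-only part leaves out BAD, BID, BIK and HRK.

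Ratios within a library compare partners that bind each other or, for BAK1 to BAX, the effectors with one another. The 5 pairs were examined with an exact two-sided permutation test, adjusted over the pairs. The BCL2L1 to BAK1 ratio of FPKM was 0.897, 0.825 and 0.849 in controls and 1.69, 1.74 and 1.72 after SF3B4 siRNA. BCL2L1 transcripts were thus below BAK1 transcripts in each control and above them in each treated library, also by this length-scaled measure. The BCL2L1 to BAX ratio was 1.25 ± 0.0693 and 2.28 ± 0.137 (SD, n = 3 each). The MCL1 to BAK1 ratio was 0.203 ± 0.0484 and 0.342 ± 0.0131. BAK1 to BAX was 1.46 ± 0.0534 and 1.33 ± 0.0745, a smaller shift between 2 genes that both fell. These 4 ratios did not overlap between the groups and gave the smallest exact permutation p that 3 against 3 allows, p = 0.1 (0.125 after adjustment), so none could pass 0.05. For BCL2L1 to BAK1 and BCL2L1 to BAX this outcome was fixed by the single genes, which moved in opposite directions without overlap. It is no independent support. MCL1 to PMAIP1 overlapped, at 7.27 ± 1.58 and 6.66 ± 1.88 (exact permutation p = 0.5, adjusted 0.5).

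BMF and BIM are held in healthy cells by dynein light chains, BIM mainly by DYNLL1 and BMF mainly by DYNLL2. DYNLL2 was at 24.3, 24.8 and 23.7 FPKM in controls and at 8.43, 7.71 and 8.68 FPKM after SF3B4 siRNA. It fell to 34.1% of control without overlap (log2 fold change -1.54, SE 0.07, limma adjusted p = 8.8e-05). DYNLL1 was at 35.4 ± 2.28 and 41.5 ± 0.845 FPKM (SD, n = 3 each) and rose (log2 fold change 0.23, limma adjusted p = 0.034). The DYNLL1 call was lost in 9 of 14 alternatives (limma adjusted p 0.063 to 0.099), among them leaving out any 1 SF3B4 siRNA replicate or control replicate 2 or 3. The BMF to DYNLL2 ratio, formed after the values were seen, was 0.243, 0.267 and 0.270 in controls and 1.19, 1.60 and 1.12 after SF3B4 siRNA. Its lack of overlap follows from the single genes, which moved in opposite directions without overlap. BMF transcripts were below DYNLL2 transcripts in every control and above them in every treated library. By the same length-scaled measure they stayed below DYNLL1 transcripts (33.7 to 42.3 FPKM) in every library.

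**Figure D4:**
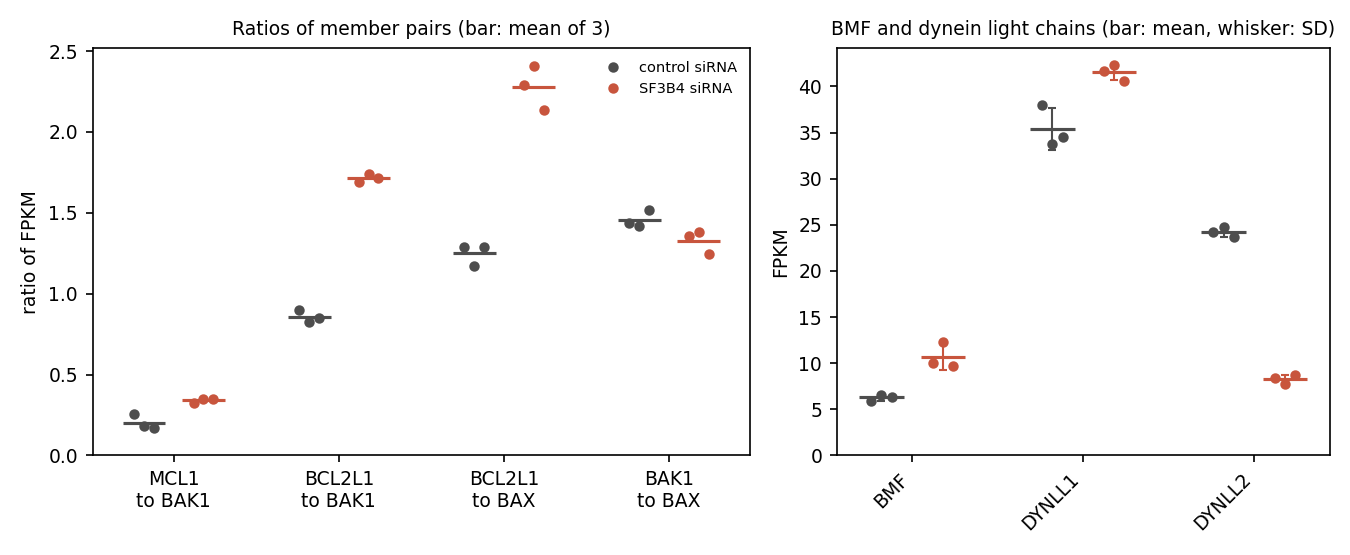
Left, ratios of FPKM for 4 pairs of genes in each library, with the mean as a bar. Right, FPKM of BMF, DYNLL1 and DYNLL2 with mean and SD, control in grey and SF3B4 siRNA in red. BCL2L1 to BAK1 goes from 0.857 to 1.72 on average, and BMF and DYNLL2 move in opposite directions.

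Genes that fell after this siRNA were earlier seen in these same data to carry the words GCCTTCA or CCTTCAA in their 3' UTRs more often than others, so the sites near or in the family are shown. Over annotated coding transcripts (GENCODE 29, sense strand), 20.3% of 8404 tested genes with a 3' UTR held either word, against 35.8% of the genes that fell and 11.7% of those that rose. These shares were not adjusted for 3' UTR length, and a longer UTR has more places for a word. The annotated 3' UTR was 6257 bases in DYNLL2, up to 4480 in BCL2L11 and 1553 in PMAIP1. The words overlap by 6 bases, and capitals mark the word.
DYNLL2 (lower), chr17:58090793-58090819, plus strand, GCCTTCA followed by A, so that it also holds CCTTCAA: ttcatgagtcGCCTTCAaaactctcgt
PMAIP1 (not passed), chr18:59902772-59902798, plus strand, CCTTCAA: tgaggggactCCTTCAAaagagttttc
BCL2L11 (not passed), chr2:111164538-111164564, plus strand, CCTTCAA: ttccccctcaCCTTCAAtaaggttttt
None of the 10 genes held GCCTTCA and 2 held CCTTCAA, PMAIP1 and BCL2L11. Neither of the fallen members, BAX and BAK1, held either word in an annotated 3' UTR. DYNLL2, which is no member, held both. A word in a UTR is a description and does not show that anything bound there.

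Of 11 further BCL2 family genes, 5 were tested, of which 2 rose and 1 fell. Counts of this list and those below stand against 34.1% of all tested genes called, and were not tested against that share. BCL2L13, a mitochondrial member known as a mitophagy receptor, rose from 5.23 ± 0.370 to 7.88 ± 0.166 FPKM (SD, n = 3 each, log2 fold change 0.58, limma adjusted p = 0.0021). BOK, a pore-forming relative of BAX and BAK1, was at 51.2 ± 5.04 and 62.8 ± 1.65 FPKM and rose (log2 fold change 0.30, limma adjusted p = 0.026), above the level of BAX and BAK1 in both groups. The BOK call was lost in 7 of 14 alternatives (limma adjusted p 0.053 to 0.080), among them leaving out control replicate 3 or any 1 SF3B4 siRNA replicate. BCL2L12 fell from 22.9 ± 0.472 to 14.2 ± 0.914 FPKM (log2 fold change -0.69, limma adjusted p = 0.00058), but IRF3 on the other strand covers 33.1% of its exonic bases, so it is uncertain. The lymphoid member BCL2A1 was listed at 0 in every library.

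Downstream of the mitochondria, CASP9 rose and VDAC1 fell among the genes of caspase activation reported here. The initiator CASP9 rose from 1.42 ± 0.266 to 2.31 ± 0.266 FPKM (SD, n = 3 each, limma adjusted p = 0.016), a call lost without SF3B4 siRNA replicate 2 (limma adjusted p = 0.057) and without the filter (0.052). VDAC1, a channel of the outer mitochondrial membrane, fell from 89.5 ± 8.46 to 54.8 ± 2.95 FPKM (limma adjusted p = 0.00092), but its pseudogene VDAC1P1 was listed at a mean of 44.4 FPKM, so that value is uncertain. A further 8 tested genes did not pass and had log2 fold changes between -0.20 and 0.18. Of the caspase inhibitor list, 2 genes were tested and 0 called. BIRC5 (survivin) was at 8.86 ± 0.742 and 6.73 ± 1.13 FPKM, which did not overlap but did not pass (limma adjusted p = 0.053), and passed without SF3B4 siRNA replicate 3 (limma adjusted p = 0.038).

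In the death receptor list 1 of 5 tested genes rose, TNFRSF10A (a TRAIL receptor), from 2.32 ± 0.0646 to 3.06 ± 0.0777 FPKM (SD, n = 3 each, limma adjusted p = 0.015). That call was lost in 4 of 14 alternatives (limma adjusted p 0.051 to 0.057), among them leaving out control replicate 3 or SF3B4 siRNA replicate 1 or 3. Of 4 tested genes for MCL1 protein turnover, BTRC, a ubiquitin ligase subunit, rose (1.39 ± 0.157 to 1.83 ± 0.0273 FPKM, limma adjusted p = 0.045). It was lost in 7 of 14 alternatives (limma adjusted p 0.085 to 0.12), among them leaving out any 1 library but control replicate 1.

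Of 6 tested transcription factors known to act on family genes, 2 rose and none fell. DDIT3 (CHOP), a stress factor known to act on BCL2L11 and BBC3, was at 1.14 ± 0.119 and 1.90 ± 0.0452 FPKM (SD, n = 3 each, limma adjusted p = 0.0044). On the other strand, MARS covers 27.2% of its exonic bases and MBD6 covers 4.44%. MARS was listed at 11.8 to 14.0 FPKM and MBD6 at 4.04 to 5.55 FPKM, both above DDIT3, so the DDIT3 value is uncertain. STAT3, known to act on BCL2L1 and MCL1, rose from 18.5 ± 2.23 to 23.7 ± 0.961 FPKM (limma adjusted p = 0.023). The STAT3 call was lost in 5 of 14 alternatives (limma adjusted p 0.054 to 0.074), among them leaving out control replicate 2 or 3 or SF3B4 siRNA replicate 1 or 3.

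Among 8 tested splicing regulators known to act on BCL2L1 or MCL1, 1 rose and 2 fell, against 34.1% of all tested genes called. PTBP1 was at 15.2, 8.80 and 11.1 FPKM in controls and at 6.43, 4.97 and 5.90 FPKM after SF3B4 siRNA (log2 fold change -0.98, limma adjusted p = 0.0089). HNRNPF fell from 17.8 ± 1.76 to 13.6 ± 0.577 FPKM (SD, n = 3 each, limma adjusted p = 0.013). SRSF9 was at 51.0 ± 0.318 and 59.6 ± 3.01 FPKM (limma adjusted p = 0.026), a call lost in 8 of 14 alternatives (limma adjusted p 0.051 to 0.099), among them leaving out control replicate 2 or 3 or SF3B4 siRNA replicate 2 or 3. GATC on the other strand covers 46.2% of the exonic bases of SRSF9, so the SRSF9 value is uncertain. Levels of these regulators do not show how BCL2L1 or MCL1 was spliced, which these values do not measure.

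For MCL1, BAK1 and BMF, the genes with the nearest pattern over the 6 libraries were taken, by the root mean square difference of log2 values centred on each gene's mean, among 9474 genes. For MCL1 they were DCAF10 (0.021) and TRAK2 (0.037), neither of which passed the test. For BAK1 they were ABCC3 (0.036), a drug efflux transporter gene at 5.78 and 3.67 FPKM, and ECE2 (0.039) at 4.29 and 2.59 FPKM. For BMF they were FYCO1 (0.023), an autophagosome transport gene at 1.15 and 1.96 FPKM, and VWA1 (0.054) at 37.2 and 65.2 FPKM. This likeness is over 6 libraries in 2 groups and says nothing of shared function.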

How the data were processed

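RNA of 6 libraries was measured, 3 per siRNA group, grouped and numbered by the titles. Each deposited table holds decimal FPKM, 1 per gene, per the file headers. The submitters' processing notes list HISAT2 2.0.4, StringTie 1.3.0 and GRCh38, with no role or order. The annotation and the strand setting were not given in the sources used here. Libraries were made from total RNA, per the labels' protocols. No count test was applied to FPKM. The titles call the replicates biological without naming separate cultures, and the p-values describe the spread of these libraries alone, which may be technical.

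Symbols matched 49659 of 50868 identifiers, and positions came from GENCODE 29, which may differ from the authors' annotation. Genes at 1 FPKM or more in 3 or more libraries were tested with limma 3.58.1 in R 4.3.3 (group as the only term, intensity trend, robust option, two-sided, Benjamini-Hochberg, threshold 0.05) on log2(FPKM + 0.1). Fold changes are on that scale, which understates changes of low genes. The fit was checked on simulated data. Depth came from value steps of 14845 single-exon genes, of whose low values 99.1% to 99.5% lay within 0.02 of a whole fragment, and covers counting error only. Ratios used exact permutation tests.

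The members and lists were chosen with earlier results of these data known. All 10 members are named. Of each other list, the text names those past the threshold (the 4 largest changes where more passed), or the gene with the smallest p where none did. It also names SF3B4, overlapping genes and, for 3 members, the 2 nearest patterns. BCL2A1, BAD, BID, BIK, HRK, pseudogenes and marker genes were named outside this rule. The alternatives changed the pseudocount, filter, scaling, limma options, replicate block and libraries left out. None changed how fragments were assigned to transcripts. Results of 2 list genes are not reported here.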

Additional observations from a re-analysis of the deposited data

How the results depend on the processing

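In all 14 alternatives listed in the methods 2 members were called higher and 2 lower, with the log2 fold change at 0.65 to 0.81 for BMF, 0.28 to 0.36 for BCL2L1, -0.60 to -0.50 for BAX and -0.75 to -0.63 for BAK1 (limma adjusted p at most 0.010, 0.036, 0.0092 and 0.0046). Over all genes, calls numbered 1094 to 1738 higher and 1331 to 1881 lower, against 1546 and 1752, and no setting moved the median log2 fold change of all genes beyond 0.028 in size. The sign changed for BCL2L2 (-0.39 to 0.90 with 1 library left out, -0.16 summed with BCL2L2-PABPN1, chosen after seeing the data), for BBC3 (-0.025 to 0.25 with 1 library left out) and for the log2 ratio of MCL1 to PMAIP1 (-0.32 to 0.035, with the positive value from leaving out control replicate 1). The cause was not tested. With the replicate block, 1290 genes were higher and 1537 lower, and 2 members higher and 2 lower. Libraries with the same number had correlations of deviations of -0.08, 0.024 and -0.12, so the numbers were not taken to pair them, and the block also ended the calls of BTRC, DYNLL1, SRSF9 and TNFRSF10A and made one of BIRC5 (limma adjusted p = 0.028). With 3 libraries per group and at most 73.1 fragments behind BBC3 and 48.5 behind PMAIP1, small differences in these genes were not detectable.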
